A study of Mus musculus with 18 samples.

Results

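Nr4a1, Nr4a2, Nr4a3, Egr1, Egr2, Egr3, Klf6, Klf10 and Ier2, 9 genes of the 14695 in the deposited count table, were followed in mouse CD8+ T cells cultured with or without halofuginone. They are genes known for an immediate early response and were chosen by name. Nr4a1 and Klf10 were picked because their response to the drug differed between genotypes in these libraries, so their values are a description and carry no test, and the other 7 were tested. The cells came from spleen and lymph node and carried a CRISPR/Cas9 edit at Rosa26, a neutral site used as the control, at Atf4, or at Cebpg. Cells of each genotype were sequenced after 24 h without treatment and after 24 h with halofuginone, which inhibits prolyl-tRNA synthetase and so triggers the response to amino acid shortage. That made 6 groups of 3 poly-A RNA libraries, 18 in all. All groups, the control included, were edited cells, and the sources used here give no age or strain of the mice and no dose of the drug. Separate animals or cultures are not named for replicates, so a p-value measures only the spread between these libraries, which may be technical.

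Immediate early genes are transcribed within minutes of a signal from pre-existing factors, without new protein synthesis, and their mRNAs are usually short-lived. All libraries here were taken at 24 h, so a response within minutes was not measured. In T cells the antigen receptor is their best known trigger: calcium and MAP kinase signals act through CREB, serum response factor with its ELK partners, MEF2 and NFAT. NR4A1 (NUR77), NR4A2 (NURR1) and NR4A3 (NOR1) are orphan nuclear receptors linked to tolerance and exhaustion of T cells, and Nr4a1 is widely used as a reporter of receptor signalling. EGR1, EGR2 and EGR3 are zinc finger factors held back by NAB corepressors, and EGR2 and EGR3 are known for restraining T cell activation. KLF6 and KLF10 (TIEG1) are zinc finger factors of the Krüppel-like family, KLF10 being an early target of TGF-β, and IER2 is a small nuclear protein. ATF4 and its partner C/EBPγ are transcription factors of the integrated stress response, which halofuginone engages.

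The 250 bases before the start of transcription are shown for 5 members, because cyclic AMP response elements, through which CREB and related factors act, are a known feature of NR4A promoters. Sequences are from RefSeq on build GRCm38.p6, read 5′ to 3′ on the strand of the gene, and 5 of the 9 members were matched in that table. Capitals mark TGACG, the core of the element, or its reverse complement CGTCA. Stretches that the GENCODE M21 annotation places in an exon were left off, which shortened the windows of Nr4a3 to 98 bases and of Klf6 to 243 bases.
Nr4a1, chr15:101266596-101266845, plus strand: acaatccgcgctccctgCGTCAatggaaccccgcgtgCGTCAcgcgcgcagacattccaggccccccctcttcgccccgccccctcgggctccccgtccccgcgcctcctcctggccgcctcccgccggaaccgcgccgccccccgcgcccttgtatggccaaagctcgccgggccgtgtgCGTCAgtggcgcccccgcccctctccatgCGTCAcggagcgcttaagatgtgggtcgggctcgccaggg
Nr4a2, chr2:57124004-57124253, minus strand: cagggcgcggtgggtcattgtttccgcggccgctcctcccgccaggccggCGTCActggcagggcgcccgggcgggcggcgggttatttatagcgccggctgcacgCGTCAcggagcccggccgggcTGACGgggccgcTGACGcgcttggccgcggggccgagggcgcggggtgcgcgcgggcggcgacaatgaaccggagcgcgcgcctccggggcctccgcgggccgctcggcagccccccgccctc
Nr4a3, chr4:48045055-48045152, plus strand: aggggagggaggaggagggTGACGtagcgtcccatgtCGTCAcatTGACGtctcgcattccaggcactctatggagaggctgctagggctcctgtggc
Egr2, chr10:67537619-67537868, plus strand: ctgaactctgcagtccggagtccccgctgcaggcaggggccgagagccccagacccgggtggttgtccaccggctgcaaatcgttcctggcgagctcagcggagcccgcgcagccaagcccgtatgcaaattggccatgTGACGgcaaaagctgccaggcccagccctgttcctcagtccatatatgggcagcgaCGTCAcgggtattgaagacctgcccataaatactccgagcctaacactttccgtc
Klf6, chr13:5861239-5861481, plus strand: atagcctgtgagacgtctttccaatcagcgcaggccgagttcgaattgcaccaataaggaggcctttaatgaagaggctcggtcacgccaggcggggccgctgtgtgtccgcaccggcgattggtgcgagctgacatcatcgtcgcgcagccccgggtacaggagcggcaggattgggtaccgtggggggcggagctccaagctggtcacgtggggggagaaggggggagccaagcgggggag
Each of the 3 NR4A genes held 4 copies of the core in the window of 300 bases that runs from 250 before to 50 after the start, counting both strands. The copies began 233, 213, 69 and 40 bases before the start of Nr4a1, 200, 144, 123 and 111 bases before that of Nr4a2, and 231, 213, 205 and 147 bases before that of Nr4a3, where the last lies in the part left off. Of 32851 RefSeq promoter windows of the same length, several of which can belong to 1 gene, 0.231% held 4 or more copies and 20.8% held at least 1. The table has 5 starts for Egr2. The windows of 3 of them, which overlap, held 2 copies each and the windows of 2 held 0, and the one shown was chosen after this was seen, because it holds copies. The Klf6 window held 0.

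Other motifs were searched in the same windows on both strands. The whole element TGACGTCA, which contains the core TGACG and so overlaps it, was in none of the windows of these 5 genes and in 1.79% of all windows. The CArG box of serum response factor was found once in 4 of the 5 Egr2 windows, the one shown included, and in 1.63% of all windows. Nr4a1 held 1 EGR site GCGGGGGCG, as did 2.91% of all windows. The C/EBP-ATF composite TGATGNAA, to which ATF4 is known to bind, was in none of the windows of these 5 genes and in 3.97% of all windows. The NR4A site AAAGGTCA (1.51% of all windows), the other EGR site GCGTGGGCG (0.612%) and the AP-1 site TGANTCA (7.81%) were likewise in none of them. A match describes letters in the window and a missing match says nothing about a factor.

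Libraries held 14.2 to 20.3 M (mega) counts. Levels are in CPM, counts per 1 M counts of the library after TMM scaling of its size. Atf4 mRNA, at 256 to 428 CPM, and Cebpg mRNA, at 52.8 to 183 CPM, were present in every library. Counts need not fall after small edits, so the presence of these mRNAs does not check the genotype labels. With the drug Cebpg mRNA stood at 167 to 183 CPM in Rosa26, 123 to 137 CPM in Atf4 knockout and 93.4 to 105 CPM in Cebpg knockout cells. Treated Atf4 knockout libraries, at 267 to 378 CPM of Atf4, overlapped both other treated groups. The part of the edits in these levels was not tested. All 10 CD8 T cell markers were measured, with Cd8a at 930 to 1170 CPM. Summed, they stood at 4350 to 4520 CPM in untreated libraries. With the drug the sum was 3850 to 4560 CPM in Rosa26, 3360 to 4190 CPM in Atf4 knockout and 3520 to 3800 CPM in Cebpg knockout cells. Treated knockout libraries thus lay below every untreated library in this sum, while in Rosa26 the ranges overlapped. Of the markers of other cells, 2 of 4 for CD4 T cells, 3 of 10 for myeloid cells, 2 of 4 for NK cells and 3 of 7 for erythroid cells and platelets were in the table. Neither Cd4 nor Lyz2 was among them. Summed CD4 T cell markers (Zbtb7b and Foxp3) ran from 8.19 to 13.9 CPM in untreated libraries. With the drug they stood at 33.6 to 36.3 CPM in Rosa26, above the 17 to 20.4 CPM of Atf4 knockout and 15.4 to 17.4 CPM of Cebpg knockout cells, so they moved with the genotype as well as with the drug. The 4 B cell markers that were read (Cd79a, Cd79b, Ighd and H2-Ab1) summed to 13.4 to 19.6 CPM untreated and 11.4 to 16.5 CPM treated. Myeloid markers summed to 2.83 to 5.74 CPM untreated and 6.56 to 11 CPM treated, and NK markers (mostly Nkg7, which CD8 T cells also express) to 203 to 260 CPM and 296 to 386 CPM. Erythroid and platelet markers (Pf4, Ppbp and Itga2b) summed to 3.03 to 7.95 CPM untreated. With the drug their sum was 4.04 to 7.97 CPM in Rosa26, 8.77 to 12.3 CPM in Atf4 knockout and 7.08 to 12.6 CPM in Cebpg knockout cells. Treated Atf4 knockout libraries thus lay above every untreated and every treated Rosa26 library in this sum. The part of all these markers in the results below was not tested. In bulk RNA, more cells with a transcript and more transcript per cell cannot be told apart.

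The level of the nuclear RNA Malat1 differed between libraries in ways that touch the results. Untreated Rosa26 libraries held 858 to 1168 CPM, where all untreated knockout libraries held 2026 to 2606 CPM, so Malat1 moved with the genotype in untreated cells and, in 2 of 3 treated libraries, with the drug in Rosa26. For comparisons that use untreated Rosa26 this and the group cannot be told apart. In each treated group 1 library stood apart by a low level. It was replicate 2 of Rosa26, with 672 CPM where the others held 2074 and 2607 CPM. In the Atf4 knockout replicate 3 was at 1158 CPM, below 2404 and 3415 CPM, and in the Cebpg knockout replicate 3 was at 1960 CPM, below 3237 and 3580 CPM. Klf6, Klf10 and Ier2 were each highest of their group in this library in 3 of 3 treated groups. Over the 9 genes and 3 groups it was the highest of its group in 17 of 27 cases and the lowest in 3. The part of this difference in the drug responses was not tested, and each response is given with and without these 3 treated libraries, called the libraries low in Malat1 below, where they change it.

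Halofuginone raised most of these genes, and 0 of the 7 tested fell in any genotype, by edgeR at an adjusted or an unadjusted p under 0.05 and by DESeq2. In Rosa26 cells 4 of 7 rose (Nr4a2, Nr4a3, Egr1 and Klf6), where 23.6% of all genes rose and 24.1% fell (edgeR quasi-likelihood test, Benjamini-Hochberg adjusted p under 0.05, here and below). In Atf4 knockout cells all 7 rose, against 23.1% of all genes that rose and 26.5% that fell. In Cebpg knockout cells 5 of 7 rose (Nr4a2, Nr4a3, Egr2, Klf6 and Ier2), against 23.1% that rose and 28.0% that fell. Genes of this class were chosen together and with results of these libraries known, so these counts describe the 7 genes. Without the 3 libraries low in Malat1 the counts were 4, 6 and 6. The plot of log2 fold changes by genotype shows the responses side by side.

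**Figure D1:**
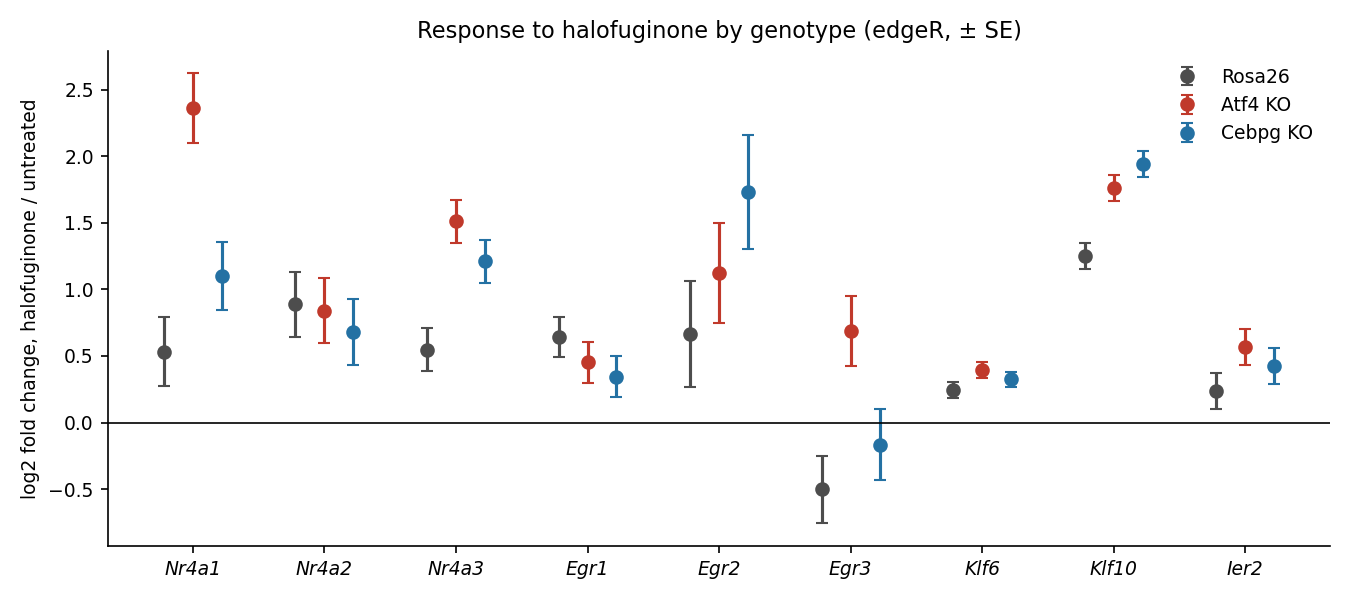
Log2 fold change of each gene with halofuginone against untreated (vertical axis) in Rosa26, Atf4 knockout and Cebpg knockout cells, with bars of 1 SE from the fit over 18 libraries. Nr4a1 ran from 0.53 in Rosa26 to 2.36 in Atf4 knockout cells, and Egr3 is the gene with values on both sides of 0, of which those in Rosa26 and Cebpg knockout cells did not pass the test.

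Nr4a1, the receptor signalling reporter of the family, was low in untreated cells and highest in treated Atf4 knockout cells. In Rosa26 the untreated libraries, in order of replicate number here and below, held 3.54, 3.71 and 3.48 CPM and the treated ones 4.50, 6.71 and 4.36 CPM. Atf4 knockout cells went from 2.90, 1.44 and 2.78 CPM to 13.3, 10.5 and 12.5 CPM, and no library of another group reached the lowest of these treated ones. Cebpg knockout cells went from 3.96, 2.76 and 3.11 CPM to 7.10, 4.60 and 9.38 CPM, a treated range that overlaps that of Rosa26. The log2 fold changes were 0.53 ± 0.258 (SE from the fit, as for every log2 value below), 2.36 ± 0.263 and 1.10 ± 0.258 in Rosa26, Atf4 knockout and Cebpg knockout cells. Without the libraries low in Malat1 they were 0.35, 2.38 and 0.88. In Rosa26 the value moved by over 1.5 times, and it was 0.303 with treated replicate 2 alone left out of all 18 libraries. By group mean the order was treated Atf4 knockout (12.1 CPM), treated Cebpg knockout (7.03), treated Rosa26 (5.19), then untreated Rosa26 (3.58), Cebpg knockout (3.28) and Atf4 knockout (2.37). The libraries of treated Cebpg knockout and treated Rosa26 overlapped, as did those of untreated Cebpg knockout with both other untreated groups. Nr4a1 was picked for this difference, so no test is given.

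Nr4a2 rose in all 3 genotypes. Its levels were 3.04 ± 1.27 CPM (SD, n = 3) untreated and 5.63 ± 1.15 CPM treated in Rosa26, 3.57 ± 0.216 and 6.40 ± 0.892 CPM in Atf4 knockout cells, and 3.26 ± 0.457 and 5.21 ± 0.604 CPM in Cebpg knockout cells. Treated and untreated libraries did not overlap in any genotype. Untreated Rosa26 replicate 1, at 1.62 CPM, lay below the 2.94 to 4.07 CPM of the other untreated libraries. The log2 fold changes were 0.89 ± 0.245 (adjusted p = 0.00529), 0.84 ± 0.242 (adjusted p = 0.00678) and 0.68 ± 0.247 (adjusted p = 0.0264). In Rosa26 the value was 0.589 without untreated replicate 1 (adjusted p = 0.0294, within 0.0017 to 0.0351). The call in Cebpg knockout cells rested on single libraries. Its adjusted p was 0.0854 without treated replicate 1, 0.0588 without treated replicate 3, 0.079 without untreated replicate 1 and 0.0886 without untreated replicate 2, within a range of 0.00423 to 0.0886 over 13 alternatives.

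Nr4a3 rose in every genotype, and by more in Atf4 knockout than in Rosa26 cells. In Rosa26 it went from 5.40, 5.74 and 4.43 CPM to 7.07, 8.07 and 7.66 CPM, a log2 fold change of 0.55 ± 0.159 (adjusted p = 0.0074). In Atf4 knockout cells 4.56, 3.29 and 5.03 CPM became 11.1, 12.6 and 12.9 CPM, 1.51 ± 0.16 (adjusted p = 1.36e-07). In Cebpg knockout cells 3.96, 4.14 and 4.93 CPM became 8.80, 11 and 10.5 CPM, 1.21 ± 0.161 (adjusted p = 2.47e-06). The lowest treated library of either knockout stood above the highest treated Rosa26 library, while the untreated libraries of the 3 genotypes overlapped. These calls held under all 13 alternatives tried for each.

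**Figure D2:**
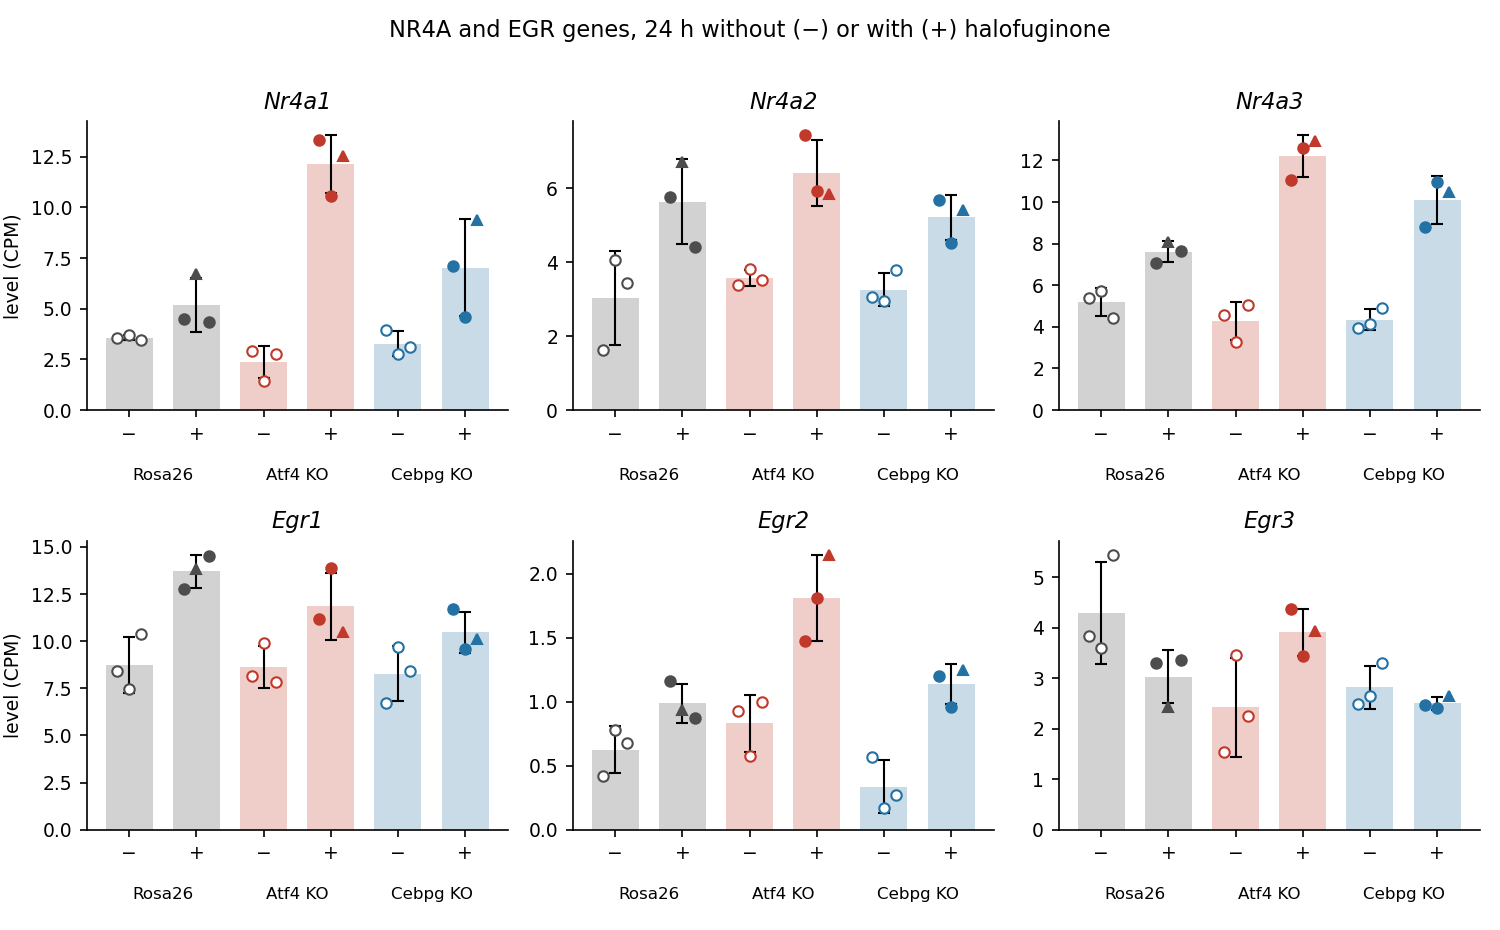
Levels in CPM (vertical axis, from 0) of the NR4A and EGR genes in the 18 libraries, untreated (−, open) and with halofuginone (+, filled); bars are means of 3 libraries, error bars 1 SD, and triangles the treated library low in Malat1. Treated Atf4 knockout libraries held 10.5 to 13.3 CPM of Nr4a1 and 11.1 to 12.9 CPM of Nr4a3, above every library of the other groups for each gene.

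Egr1, the most abundant EGR gene here, rose in Rosa26 and in Atf4 knockout cells. In Rosa26 it went from 8.41, 7.48 and 10.4 CPM to 12.8, 13.8 and 14.5 CPM with no overlap, 0.64 ± 0.152 (adjusted p = 0.00151). In Atf4 knockout cells 8.13, 9.93 and 7.82 CPM became 11.2, 13.9 and 10.5 CPM, 0.45 ± 0.154 (adjusted p = 0.0191). In Cebpg knockout cells the 6.74, 9.67 and 8.44 CPM untreated overlapped the 11.7, 9.61 and 10.1 CPM treated, and 0.34 ± 0.156 did not pass the test (adjusted p = 0.0738). In Atf4 knockout cells the adjusted p was 0.111 without treated replicate 2, 0.0675 without untreated replicate 1 and 0.078 without untreated replicate 3, within 0.00182 to 0.111 over the alternatives. In Cebpg knockout cells it passed under 7 of 13 alternatives, with 0.0307 without untreated replicate 2 and 0.0264 without the libraries low in Malat1, within 0.0214 to 0.319.

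Egr2 lay near the lower end of the table, with 3 to 36 counts a library, and rose in both knockouts. Its counts were 7, 13 and 12 untreated and 24, 15 and 14 treated in Rosa26, 15, 10 and 15 against 24, 29 and 36 in Atf4 knockout cells, and 10, 3 and 4 against 22, 14 and 18 in Cebpg knockout cells. Treated libraries lay above untreated ones in each genotype. On the scale of CPM the means went from 0.624 to 0.988, from 0.832 to 1.81 and from 0.336 to 1.14. The log2 fold changes were 0.66 ± 0.396 (adjusted p = 0.181), 1.12 ± 0.375 (adjusted p = 0.0173) and 1.73 ± 0.429 (adjusted p = 0.00214). In Atf4 knockout cells the adjusted p was 0.0527 without treated replicate 3, 0.0845 without untreated replicate 2 and 0.0506 without the libraries low in Malat1, within 0.0105 to 0.0845 over the alternatives. In Cebpg knockout cells it held under all 13.

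Egr3 was the member whose responses had different signs. In Rosa26 it went from 3.84, 3.59 and 5.44 CPM to 3.29, 2.42 and 3.36 CPM, so that all treated libraries lay below the untreated ones, yet -0.50 ± 0.254 did not pass the test (adjusted p = 0.113). The lowest treated library, replicate 2, was the one low in Malat1, and without the libraries low in Malat1 the value was -0.33 (adjusted p = 0.276). In Atf4 knockout cells it rose from 1.54, 3.46 and 2.25 CPM to 4.36, 3.43 and 3.94 CPM, 0.69 ± 0.261 (adjusted p = 0.035), with an overlap between untreated replicate 2 and treated replicate 2. In Cebpg knockout cells 2.49, 2.65 and 3.31 CPM stood beside 2.46, 2.40 and 2.64 CPM, a log2 fold change of -0.17 ± 0.266 (adjusted p = 0.636). The rise in Atf4 knockout cells was lost without treated replicate 1 (adjusted p = 0.108), untreated replicate 1 (adjusted p = 0.18) or untreated replicate 3 (adjusted p = 0.0944), and in a fit of those 2 groups alone (adjusted p = 0.0988), within 0.004 to 0.18 over the alternatives. Without untreated replicate 2 it was larger, at 1.04 (adjusted p = 0.004).

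Klf6, among the most abundant of the 9, rose by a small amount in each genotype. It stood at 164 CPM untreated and 194 CPM treated in Rosa26, at 148 and 195 CPM in Atf4 knockout cells, and at 144 and 181 CPM in Cebpg knockout cells, as group means. Every treated library, at 172 to 209 CPM, lay above every untreated one, at 139 to 165 CPM. The log2 fold changes were 0.24 ± 0.0578 (adjusted p = 0.00166), 0.39 ± 0.058 (adjusted p = 1.08e-05) and 0.32 ± 0.0581 (adjusted p = 9.67e-05). The calls held under all 13 alternatives tried for each.

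Klf10, the TGF-β early gene, had larger fold changes than Klf6 in each genotype. Rosa26 libraries held 22, 21.1 and 22.6 CPM untreated and 46.1, 59.8 and 50.7 CPM treated. Atf4 knockout libraries held 28.2, 27.1 and 28.6 CPM and then 88.6, 88.8 and 106 CPM, and Cebpg knockout libraries 20.2, 22.9 and 22.1 CPM and then 75.4, 84.8 and 89.3 CPM. The lowest treated knockout library, at 75.4 CPM, stood above the highest treated Rosa26 library, at 59.8 CPM. The log2 fold changes were 1.25 ± 0.0973, 1.76 ± 0.0952 and 1.94 ± 0.0974, and 1.18, 1.70 and 1.92 without the libraries low in Malat1. Untreated Atf4 knockout cells also stood above untreated Rosa26 cells, by 0.35 ± 0.1 on the log2 scale and without overlap. The order by group mean was treated Atf4 knockout, treated Cebpg knockout, treated Rosa26, then untreated Atf4 knockout, Rosa26 and Cebpg knockout, with overlap between libraries of the first and second and of the last pair. Klf10 was picked for its genotype dependence and carries no test.

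Ier2 rose in both knockouts. Rosa26 libraries held 79.7, 79.2 and 75.6 CPM untreated and 85.4, 110.0 and 81.4 CPM treated, 0.24 ± 0.137 (adjusted p = 0.167). Atf4 knockout libraries held 78.3, 73.8 and 66.8 CPM and then 93.5, 94.2 and 137 CPM, 0.57 ± 0.137 (adjusted p = 0.00228). Cebpg knockout libraries held 76.5, 68.3 and 71.2 CPM and then 85.6, 95 and 109 CPM, 0.42 ± 0.137 (adjusted p = 0.0161). Treated and untreated libraries did not overlap in any genotype, and the highest treated library of each group was the one low in Malat1. Without those 3 libraries the values were 0.13 (adjusted p = 0.0684), 0.40 (adjusted p = 6.05e-07) and 0.36 (adjusted p = 3.77e-06), so that the value in Rosa26 was over 1.5 times smaller. The call in Cebpg knockout cells was lost without treated replicate 3 alone (adjusted p = 0.0769) or untreated replicate 2 (adjusted p = 0.0566), within 3.77e-06 to 0.0769 over the alternatives. With upper-quartile scaling the value in Rosa26 passed (adjusted p = 0.0233, within 0.0233 to 0.573).

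**Figure D3:**
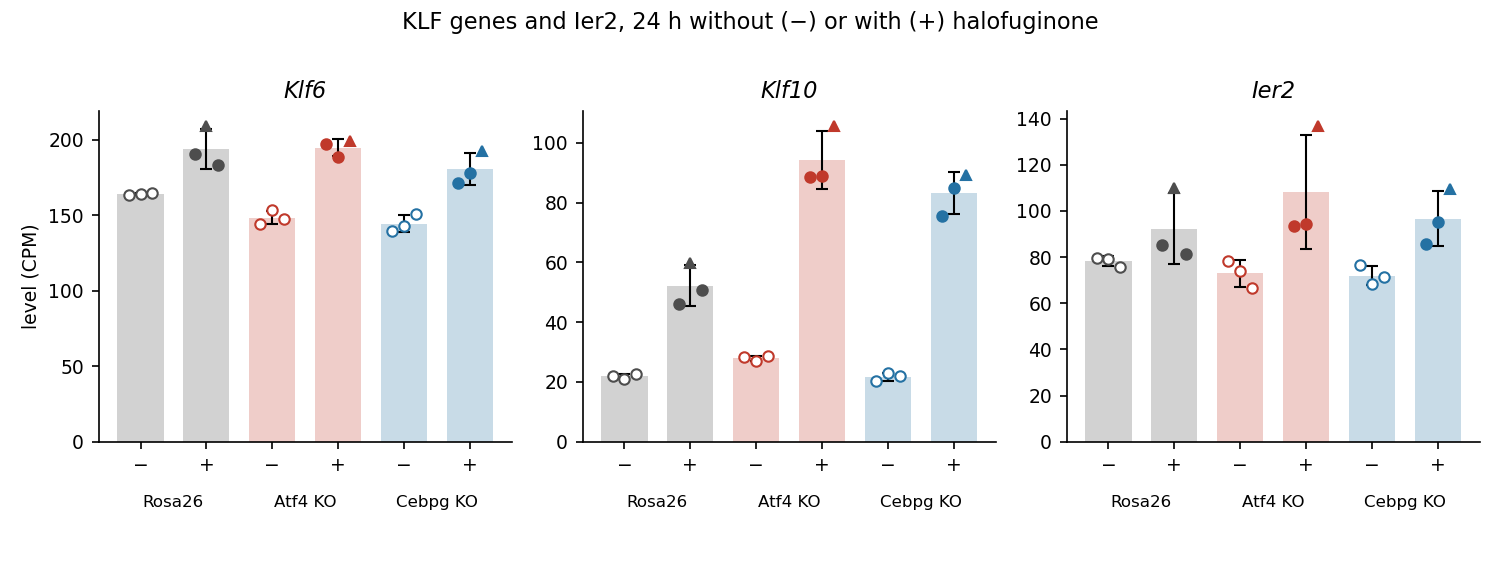
Levels in CPM (vertical axis, from 0) of Klf6, Klf10 and Ier2 in the 18 libraries, drawn as in the plot of NR4A and EGR levels: open untreated, filled treated, bars the means of 3 libraries, error bars 1 SD, triangles the treated library low in Malat1. The triangle is the highest of its group in all 9 cases, and treated Klf10 lay at 75.4 CPM or above in both knockouts against at most 59.8 CPM in Rosa26.

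Whether a knockout changed the response to the drug was tested as a difference of fold changes. Only Nr4a3 passed among the 7 genes: its response was larger in Atf4 knockout than in Rosa26 cells by 0.96 ± 0.225 on the log2 scale (adjusted p = 0.013), where 6.42% of all genes passed. It passed under all 19 alternatives, at adjusted p from 0.00131 to 0.0411 and differences from 0.798 to 1.09. The larger response of Egr3, by 1.19 ± 0.364, did not pass (adjusted p = 0.0589). Nor did its value of 1.05 without the libraries low in Malat1 (adjusted p = 0.0503). The difference for Egr3 passed under 5 of 19 alternatives, at 0.0155 without untreated Atf4 knockout replicate 2 and 0.0421 without treated Atf4 knockout replicate 3 among them, within 0.0155 to 0.161. Without the libraries low in Malat1 the difference for Ier2, 0.26, also passed (adjusted p = 0.0401, within 0.0401 to 0.592), where the fit of 18 libraries gave 0.33 ± 0.193 (adjusted p = 0.378). The CD4 T cell markers moved with this comparison too, both of the 2 measured having a smaller response in Atf4 knockout than in Rosa26 cells (median difference -0.831), and their part in it was not tested. For Nr4a2, at -0.05 ± 0.343, Egr1, at -0.19 ± 0.216, and Egr2, at 0.46 ± 0.55, the differences were within 1 SE of 0. Klf6 stood at 0.15 ± 0.0819 and did not pass (adjusted p = 0.326).

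Between Cebpg knockout and Rosa26 cells 0 of the 7 genes passed, where 2.47% of all genes did. At an unadjusted p under 0.05 there was 1, Nr4a3 at 0.67 ± 0.226 (adjusted p = 0.15), and DESeq2 called 0. Between the 2 knockouts 0 of 7 passed, where 0.0136% of all genes did, with 1 at an unadjusted p under 0.05, Egr3 at -0.85 ± 0.373 (adjusted p = 0.689), and 0 by DESeq2. The comparisons share the Rosa26 or knockout libraries with each other. For the 2 genes given without a test, the difference from Rosa26 was 1.83 ± 0.368 for Nr4a1 in Atf4 knockout and 0.56 ± 0.364 in Cebpg knockout cells, and 0.50 ± 0.135 and 0.69 ± 0.137 for Klf10. Without treated Cebpg knockout replicate 3 the second Nr4a1 value was 0.304, and without treated Rosa26 replicate 2 the Klf10 values were 0.637 and 0.832.

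**Figure D4:**
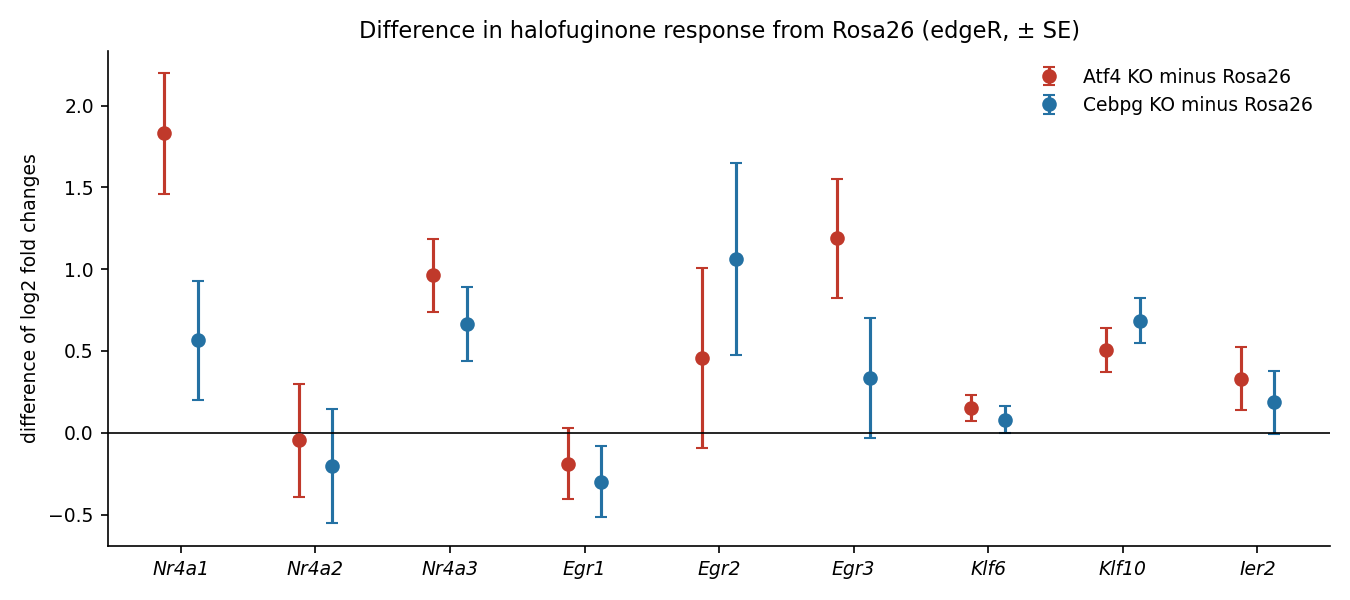
Difference of the log2 fold change with halofuginone from that in Rosa26 cells (vertical axis), for Atf4 knockout and Cebpg knockout cells, with bars of 1 SE from the fit. Among the tested genes only Nr4a3 in Atf4 knockout cells, at 0.96, passed the test; Nr4a1 and Klf10 were not tested.

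Levels were also compared between genotypes at the same treatment. With halofuginone, Nr4a3 was higher in Atf4 knockout than in Rosa26 cells by 0.685 ± 0.151 (adjusted p = 0.00173), the 1 call among 7 where 28.1% of all genes changed. Ier2 stood at 0.23 ± 0.136 (adjusted p = 0.237) in the same comparison, and passed without treated Rosa26 replicate 2 (0.351, adjusted p = 0.0398), without the libraries low in Malat1 (0.178, adjusted p = 0.0424) and with upper-quartile scaling (0.289, adjusted p = 0.0433), within 0.0398 to 0.669. Between treated Cebpg knockout and Rosa26 cells 0 of 7 passed, where 18.9% of all genes changed, with 2 at an unadjusted p under 0.05 (Nr4a3 at 0.41 ± 0.153, adjusted p = 0.0698, and Egr1 at -0.38 ± 0.15, adjusted p = 0.0847) and 1 by DESeq2, Nr4a3. That value of Nr4a3 passed under 4 of 13 alternatives, all of them changes of scaling, filter or tool, within 0.0238 to 0.18. Between the treated knockouts 0 of 7 passed, where 1.00% of all genes changed, with 1 at an unadjusted p under 0.05 (Egr3, -0.645 ± 0.261, adjusted p = 0.287) and 0 by DESeq2.

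Without the drug, Egr3 was lower in Atf4 knockout than in Rosa26 cells, at 1.54 to 3.46 CPM against 3.59 to 5.44 CPM. The log2 difference was -0.82 ± 0.26 (adjusted p = 0.0244), the 1 call among 7 where 26.0% of all genes changed. It was lost without untreated Atf4 knockout replicate 1 (adjusted p = 0.122) or replicate 3 (adjusted p = 0.0819) and without untreated Rosa26 replicate 3 (adjusted p = 0.13), within 0.00507 to 0.13. Between untreated Cebpg knockout and Rosa26 cells 0 of 7 passed, where 5.0% of all genes changed, with 2 at an unadjusted p under 0.05 and 1, Klf6, by DESeq2. Those 2 were Egr3, at -0.61 ± 0.256 (adjusted p = 0.157), and Klf6, at -0.18 ± 0.0581 (adjusted p = 0.0699). Klf6 stood at 163 to 165 CPM in untreated Rosa26 libraries and at 139 to 153 CPM in those of both knockouts, without overlap. Untreated Rosa26 libraries were also lower in Malat1 than those of the knockouts, at 858 to 1168 CPM against 2026 to 2606 CPM, which cannot be told apart from the genotype. Klf6 passed under 5 of 13 alternatives in each knockout, within 0.00543 to 0.262 for Atf4, where the value was -0.145 ± 0.0581 (adjusted p = 0.0739), and within 0.00126 to 0.196 for Cebpg. Egr3 in the Cebpg knockout passed in a fit of the 2 groups alone (adjusted p = 0.034) and without the libraries low in Malat1 (adjusted p = 0.0465), within 0.034 to 0.406.

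To compare genes with each other, mean levels were divided by the length of all annotated exons of the gene. In untreated Rosa26 cells Ier2 stood highest, at 51.4 CPM per kilobase, followed by Klf6 at 37.3 and Klf10 at 5.24. Egr1 followed at 1.95, and Nr4a1 at 1.02, Egr3 at 0.974, Nr4a3 at 0.867 and Nr4a2 at 0.749 lay close together, with Egr2 last at 0.184. In treated Atf4 knockout cells the first 3 kept their order at 71.0, 44.4 and 22.6, and Nr4a1, at 3.45, stood above Egr1, at 2.63. The division changes no comparison of a gene with itself, and no member overlaps another annotated gene in GENCODE M21.

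The 9 genes did not all vary together over the 18 libraries. Pearson r of log2 CPM between members was 0.438 to 0.939 (median 0.753) in the 28 pairs without Egr3 and 0.007 to 0.32 in the 8 pairs with it. Without the 3 libraries low in Malat1 the ranges were 0.467 to 0.919 and -0.016 to 0.476, which overlap. The highest value joined Nr4a3 and Klf10 (0.939), followed by Nr4a1 and Nr4a3 (0.904). These are descriptions over libraries that share the 6 groups and their scaling. Candidates for likeness were 9574 genes with a mean of at least 5 CPM in some group, with members and genes of provisional name left out. Among these candidates, the 2 most like each member were Mfap1b (0.93) and Paqr7 (0.929) for Nr4a1, Plekha2 (0.963) and Rnf146 (0.959) for Nr4a3, and Pik3c3 (0.917) and Pacs1 (0.91) for Nr4a2. For the EGR genes they were Pde4dip (0.874) and Gab2 (0.855) for Egr1, Taf9b (0.9) and Chfr (0.887) for Egr2, and Hipk3 (0.802) and Dgkd (0.749) for Egr3. Gpr146 and Atg12 (both 0.994) were most like Klf10, Rab8b (0.965) and Otud5 (0.953) most like Klf6, and Junb (0.973) and Serp1 (0.967) most like Ier2. Without the 3 libraries low in Malat1 these 18 values ran from 0.734 to 0.993.

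Other genes known for an immediate early response were read from a list of 40, of which 39 were measured. With halofuginone 23 rose and 4 fell in Rosa26, 23 rose and 5 fell in Atf4 knockout, and 22 rose and 6 fell in Cebpg knockout cells. In that order, of all genes 23.6%, 23.1% and 23.1% rose and 24.1%, 26.5% and 28.0% fell. The list had median log2 fold changes of 0.432, 0.54 and 0.479 against 0.0216, -0.0418 and -0.0294 over all genes. By the test of differences from Rosa26, 6 of the 39 had a higher and 2 a lower fold change in Atf4 knockout cells. In Cebpg knockout cells 0 were higher and 1 was lower. Of all genes 6.42% and 2.47% passed. Such tests are not given for single genes of this list, so a call in only some genotypes does not show different responses. The list was not uniform. Fosb, an AP-1 subunit, fell in all genotypes, by 2.01 ± 0.392 on the log2 scale in Rosa26 (adjusted p = 0.000269), by 3.43 ± 0.432 in Atf4 knockout (adjusted p = 1.42e-06) and by 1.36 ± 0.404 in Cebpg knockout cells (adjusted p = 0.00808). Fosb was low throughout, with group means of 1.54 to 3.16 CPM untreated and 0.287 to 0.6 CPM treated. Its partner Jun rose, from 86.5 ± 5.04 to 163 ± 21.3 CPM in Rosa26 (log2 fold change 0.91, adjusted p = 7.85e-08), 0.87 in Atf4 knockout (adjusted p = 1.22e-07) and 1.10 in Cebpg knockout cells (adjusted p = 4.39e-09). Fos, at 0.616 to 1.53 CPM as group means, passed in none (adjusted p = 0.267, 0.067 and 0.223). The largest rises were those of Rgs1, a regulator of G protein signalling, in Rosa26 (2.17 ± 0.213, adjusted p = 2.23e-07), of Fosl2, an AP-1 subunit that went from 22.6 ± 1.25 to 159 ± 17.7 CPM, in Atf4 knockout cells (2.82 ± 0.0932, adjusted p = 1.24e-14), and of Rgs2 in Cebpg knockout cells (2.62 ± 0.507, adjusted p = 0.000208). Rgs2 was also low there, at 0.432 ± 0.178 CPM untreated and 2.74 ± 1.09 CPM treated.

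Junb, whose levels were most like those of Ier2, rose by 0.30 ± 0.111 in Rosa26 (adjusted p = 0.0312), 0.54 ± 0.111 in Atf4 knockout (adjusted p = 0.000514) and 0.50 ± 0.112 in Cebpg knockout cells (adjusted p = 0.000935). In Rosa26 the call was lost without treated replicate 2, the library low in Malat1 (0.176, adjusted p = 0.124), without untreated replicate 2 (adjusted p = 0.0776) and without untreated replicate 3 (adjusted p = 0.0857), within 0.000624 to 0.124. Dusp1, a MAP kinase phosphatase, stood at 19 CPM with and without the drug in Rosa26 (adjusted p = 0.992) and fell by 0.38 ± 0.117 in Atf4 knockout (adjusted p = 0.00977) and by 0.58 ± 0.115 in Cebpg knockout cells (adjusted p = 0.000283). The fall in Atf4 knockout cells was lost without treated replicate 2 (adjusted p = 0.0531), within 0.00411 to 0.0531. Cd69, an early activation marker, rose from 38.7 ± 4.05 to 67.5 ± 2.55 CPM in Rosa26 (0.80 ± 0.112, adjusted p = 6.98e-06), with -0.02 ± 0.112 in Atf4 knockout (adjusted p = 0.88) and 0.24 ± 0.112 in Cebpg knockout cells (adjusted p = 0.0785, within 0.000819 to 0.198 and past the threshold under 6 of 13 alternatives). Myc passed in none, at 255 to 301 CPM as group means (adjusted p = 0.717, 0.772 and 0.839). With upper-quartile scaling the value of Myc in Cebpg knockout cells, 0.125, passed (adjusted p = 0.0488, within 0.0488 to 0.859).

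Of 14 other KLF genes 8 were measured, and 6 rose and 2 fell in Rosa26 and in Cebpg knockout cells, while 5 rose and 2 fell in Atf4 knockout cells. Their share of lower genes, 25%, was near that of all genes (24.1%, 26.5% and 28.0% in Rosa26, Atf4 knockout and Cebpg knockout cells), and 23.6%, 23.1% and 23.1% of all genes rose. Median log2 fold changes in the same order were 0.581, 0.481 and 0.468, against 0.0216, -0.0418 and -0.0294 over all genes. Klf2, a factor of T cell quiescence, rose most in each genotype, from 54.2 ± 5.56 to 169 ± 30 CPM in Rosa26 (1.64 ± 0.124, adjusted p = 6.43e-09), from 98.8 ± 8.31 to 277 ± 30.2 CPM in Atf4 knockout (1.49 ± 0.121, adjusted p = 1.29e-08) and, in Cebpg knockout cells, from 62.3 ± 4.86 to 209 ± 24.9 CPM (1.75 ± 0.124, adjusted p = 1.86e-09). Klf16 fell most, by 0.49 ± 0.103 in Rosa26 (adjusted p = 0.000534), 0.36 ± 0.104 in Atf4 knockout (adjusted p = 0.00665) and 0.44 ± 0.104 in Cebpg knockout cells (adjusted p = 0.00147).

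Partners and upstream regulators of the NR4A and EGR genes were read from a list of 20, of which 19 were measured. Among them 4 rose and 8 fell in Rosa26, 8 rose and 8 fell in Atf4 knockout, and 5 rose and 8 fell in Cebpg knockout cells. The shares that rose in Rosa26 (21.1%) and Cebpg knockout cells (26.3%) were near those of all genes (23.6% and 23.1%). The share was 42.1% in Atf4 knockout cells, against 23.1%, and in each genotype 42.1% fell, against 24.1%, 26.5% and 28.0%. Median log2 fold changes were -0.0887, 0.102 and 0.0498, against 0.0216, -0.0418 and -0.0294 over all genes. By the test of differences from Rosa26, 4 of the 19 had a higher and 0 a lower fold change in Atf4 knockout cells. In Cebpg knockout cells 0 passed in either direction. Of all genes 6.42% and 2.47% passed. Such tests are not given for single genes of this list, so a call in only some genotypes does not show different responses. Nab2, a corepressor of EGR proteins, was at -0.05 ± 0.137 in Rosa26 (adjusted p = 0.808), and rose by 0.74 ± 0.138 in Atf4 knockout (adjusted p = 0.000168) and 0.36 ± 0.139 in Cebpg knockout cells (adjusted p = 0.0372). The last was lost without treated replicate 3 (adjusted p = 0.141), untreated replicate 2 (adjusted p = 0.158) or untreated replicate 3 (adjusted p = 0.093), within 0.000841 to 0.158. The other corepressor, Nab1, fell by 0.20 ± 0.0719 in Rosa26 (adjusted p = 0.0243), rose by 0.18 ± 0.0725 in Atf4 knockout (adjusted p = 0.0411) and stood at 0.03 ± 0.0727 in Cebpg knockout cells (adjusted p = 0.736). The fall in Rosa26 was lost without treated replicate 1 (adjusted p = 0.121) or 3 (adjusted p = 0.0913), without untreated replicate 1 (adjusted p = 0.0544) or 2 (adjusted p = 0.0899), and with upper-quartile scaling (adjusted p = 0.0855), within 0.00148 to 0.121. The rise in Atf4 knockout cells was lost without treated replicate 1 (adjusted p = 0.187), untreated replicate 1 (adjusted p = 0.144) or 3 (adjusted p = 0.0861), and in a fit of those 2 groups alone (adjusted p = 0.0524), within 0.00359 to 0.187. Map2k1, a kinase of the ERK pathway, fell most in Rosa26 (-0.60 ± 0.082, adjusted p = 4.83e-06), Nfatc2 in Atf4 knockout (-0.61 ± 0.0625, adjusted p = 9.06e-08), and Rxra, which pairs with NR4A1 and NR4A2, in Cebpg knockout cells (-0.82 ± 0.125, adjusted p = 1.57e-05). The largest rises were those of the ELK factor Elk4 in Rosa26 (0.61 ± 0.0798, adjusted p = 2.75e-06), of Nab2 in Atf4 knockout cells (given above) and of Elk3 in Cebpg knockout cells (0.76 ± 0.0744, adjusted p = 4.2e-08).

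Genes linked to NR4A and EGR factors in T cells were read from a list of 21, of which 17 were measured. Among them 11 rose and 3 fell in Rosa26, 12 rose and 1 fell in Atf4 knockout, and 11 rose and 2 fell in Cebpg knockout cells, where 23.6%, 23.1% and 23.1% of all genes rose and 24.1%, 26.5% and 28.0% fell. Median log2 fold changes were 0.586, 0.728 and 0.655, against 0.0216, -0.0418 and -0.0294 over all genes. Bcl2l11, which encodes the death protein BIM, went from 46.7 ± 1.03 to 158 ± 3.61 CPM in Rosa26 (1.76 ± 0.0598, adjusted p = 4.25e-14), the largest rise there. Fasl, the death ligand, rose most in Atf4 knockout (1.75 ± 0.178, adjusted p = 7.98e-08) and Cebpg knockout cells (2.01 ± 0.184, adjusted p = 1.75e-08). Pdcd1, which encodes PD-1, fell in Rosa26 from 3.75 ± 0.337 to 2.29 ± 0.146 CPM (-0.72 ± 0.24, adjusted p = 0.0185), a call lost without treated replicate 1 (adjusted p = 0.063) or untreated replicate 1 (adjusted p = 0.0607), within 0.0121 to 0.063. The cytokine gene Tnf fell by 0.59 ± 0.0875 in Atf4 knockout (adjusted p = 1.22e-05) and by 0.64 ± 0.0862 in Cebpg knockout cells (adjusted p = 3.09e-06). Genes of this list are named only in genotypes where they were the highest or lowest called gene. Their values in the other genotypes are not given, so a change named in some genotypes need not be confined to them.

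All 11 genes of the list linked to TGF-β, KLF10 and KLF6 were measured, and 8 rose and 0 fell in each genotype, where 23.6%, 23.1% and 23.1% of all genes rose and 24.1%, 26.5% and 28.0% fell in Rosa26, Atf4 knockout and Cebpg knockout cells. Median log2 fold changes were 0.515, 0.769 and 0.514, against 0.0216, -0.0418 and -0.0294 over all genes. The count of lower genes was 0 in edgeR also at an unadjusted p under 0.05, and 0 by DESeq2. Skil, which encodes the SMAD corepressor SnoN, led in every genotype, from 62.5 ± 0.707 to 191 ± 5.94 CPM in Rosa26 (1.61 ± 0.0624, adjusted p = 1.14e-13), from 82.5 ± 0.84 to 310.0 ± 20.9 CPM in Atf4 knockout (1.91 ± 0.0621, adjusted p = 1.05e-14) and, in Cebpg knockout cells, from 71.1 ± 6.17 to 265 ± 5.3 CPM (1.90 ± 0.0625, adjusted p = 9.22e-15). These lists were drawn up with earlier results of these data known, and their counts and medians are set beside those over all genes as a description only.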

How the data were processed

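Poly-A RNA of 18 libraries was read with a directional dUTP protocol, per the labels' protocols. Per the submitters' processing notes, FastQC, MultiQC, Trimmomatic, STAR, HTSeq and edgeR were used with build GRCm39; no versions, annotation release or strand setting of the counting were given in these sources. The deposited values are raw counts of genes, per the file headers. filterByExpr removed 0 of its 14695 genes. Of the 9 members, 8 were matched by name and Egr1, whose name cell is blank, by its Ensembl identifier. Depth was 14.2 to 20.3 M counts a library. Replicate libraries were not duplicates: chi-square values divided by degrees of freedom, over genes with at least 10 counts, were 1.99 to 6.34 in untreated and 6.02 to 39 in treated groups. Since the fit gives each gene 1 estimate of spread for all groups, p-values may be too small for treated and too large for untreated comparisons.

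All libraries entered 1 fit with a term per group: edgeR 4.0.16 in R 4.3.3, TMM scaling, robust quasi-likelihood F tests, for 11 comparisons. A gene was called when its p, adjusted over all genes by Benjamini-Hochberg, was under 0.05. SE is the fold change divided by the square root of F. CPM are TMM-scaled, and log2 CPM for correlations used a prior count of 2. The scripts were tested on simulated data. Alternatives were RLE and upper-quartile factors, a filter of at least 1 CPM in 3 libraries, DESeq2 1.42.0, the compared groups only, a replicate block, each library left out, and the 3 libraries low in Malat1 left out together. The check of likeness without those libraries was chosen after seeing the data.

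Members and lists were chosen with earlier results of these data known. The text names all members, the 2 genes most like each, the highest and lowest called gene of each list in each drug comparison, and a panel of Fos, Fosb, Jun, Junb, Dusp1, Myc, Cd69, Nab1, Nab2 and Klf2. 1 marker gene is not reported here.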

Additional observations from a re-analysis of the deposited data

Results flagged for a closer look

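The response of Nr4a3 to halofuginone differed between genotypes by a test of the difference itself. The log2 fold change was larger in Atf4 knockout than in Rosa26 cells by 0.962 ± 0.225 (SE; edgeR quasi-likelihood test, adjusted p = 0.013), with all 3 treated Atf4 knockout libraries above all 3 treated Rosa26 libraries. Over 19 alternatives the difference ran from 0.798 to 1.09 and the adjusted p from 0.00131 to 0.0411. Of all genes 6.42% passed in this comparison, and the members were chosen with earlier results of these data known. Untreated Rosa26 libraries were also lower in Malat1 than untreated knockout libraries, which cannot be told apart from the genotype. The 2 CD4 T cell markers measured had a smaller response in the same comparison, and their part in it was not tested.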

How the results depend on the processing

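Of the drug comparisons, the counts of called genes (7008, 7294 and 7501) stayed within 1.5 times under every alternative tried. Other counts moved. For Atf4 knockout against Rosa26 untreated, 3827 became 6086 in the compared groups only and 6158 without the 3 libraries low in Malat1. For Cebpg knockout against Rosa26 untreated, 735 became 1536 (RLE), 1533 (filter), 1855 (DESeq2), 4113 (compared groups only), 3929 (without the 3 libraries) and 203 to 325 with 1 library left out. With the drug, Atf4 knockout against Rosa26 went from 4128 to 2373 in the compared groups only, and Cebpg knockout against Rosa26 from 2773 to between 1775 and 2872 with 1 library left out. Between the treated knockouts, 147 became 223 (RLE), 291 (upper quartile), 238 (filter), 406 (DESeq2), 1 (compared groups only), 721 (without the 3 libraries) and 22 to 404 with 1 library left out. For the difference in response of the Atf4 knockout, 943 became 617 (compared groups only), 2194 (without the 3 libraries) and 650 to 1479 with 1 left out. For the Cebpg knockout, 363 became 560 (DESeq2), 1051 (without the 3 libraries) and 210 to 434 with 1 left out. Between the knockouts, 2 became 11 (upper quartile), 39 (DESeq2), 63 (without the 3 libraries) and 1 to 4 with 1 left out. The cause was not tested.

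The replicate numbers gave no clear pairing of the libraries: 13 of 45 same-numbered pairs had a correlation of deviations over 0.1 (range -0.781 to 0.661, 9717 genes), and 12 of 45 correlated best with their own number. The library low in Malat1 was replicate 2 in treated Rosa26 and replicate 3 in both treated knockouts. This check therefore cannot tell whether same-numbered libraries shared an animal or culture. With a replicate block the calls between the treated knockouts went from 147 to 90, and no call of a member changed. Dusp1 in Rosa26 went from -0.00163 to 0.000516.

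The sign changed in 20 results, of which 0 were called in the reported fit. With upper-quartile factors the values were 0.0291 for Cd69 and 0.0309 for Myc in Atf4 knockout cells, 0.0652 for Dusp1 and 0.0233 for Nab2 in Rosa26, and, untreated, 0.0521 for Egr1 (Atf4 knockout against Rosa26) and 0.037 for Klf10 (Cebpg knockout against Rosa26). RLE, the filter and DESeq2 gave 0.0166, 0.0247 and 0.0161 for Cd69, 0.0157, 0.0238 and 0.0157 for Myc (both in Atf4 knockout cells), and 0.00976, 0.018 and 0.00926 for the difference in response of Nr4a2 (Atf4 knockout minus Rosa26). Without the 3 libraries low in Malat1 that difference was 0.147, Nr4a2 in treated Cebpg knockout against Rosa26 was 0.00133, and Myc in Cebpg knockout cells was -0.0118.

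With 1 library left out, drug responses ran from -0.128 to 0.108 for Cd69 and -0.049 to 0.0261 for Myc in Atf4 knockout cells, -0.117 to 0.0586 for Dusp1 and -0.0312 to 0.0741 for Myc in Rosa26, and -0.0468 to 0.0963 for Myc and -0.00343 to 0.0892 for Nab1 in Cebpg knockout cells. Untreated, against Rosa26, they ran from -0.136 to 0.122 for Egr1 and -0.0672 to 0.5 for Nr4a2 in the Atf4 knockout, and -0.212 to 0.0599 for Egr1, -0.0525 to 0.039 for Klf10 and -0.204 to 0.361 for Nr4a2 in the Cebpg knockout. Treated, they ran from -0.0343 to 0.0444 for Klf6 (Atf4 knockout against Rosa26), -0.0326 to 0.213 for Ier2 and -0.254 to 0.0338 for Nr4a2 (Cebpg knockout against Rosa26), and -0.265 to 0.0345 for Ier2 (between knockouts). Differences in response ran from -0.312 to 0.252 for Nr4a2 (Atf4 knockout minus Rosa26), -0.47 to 0.0935 for Nr4a2 (Cebpg knockout minus Rosa26), and -0.242 to 0.0194 for Egr1 and -0.244 to 0.0463 for Ier2 (Cebpg minus Atf4 knockout).

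Upper-quartile scaling moved the median of all genes by 0.108 in the Cebpg knockout drug comparison. The share of higher among called genes moved over 10 points in some comparisons: from 54.1% to 26.2% (RLE) for Cebpg knockout against Rosa26 untreated, from 30.4% to 50.7% (upper quartile) for the same with the drug, and from 37.5% to 59% (RLE) for the difference in response of the Atf4 knockout. For that of the Cebpg knockout it moved from 15.2% to 40.7% (RLE) and 33.1% (upper quartile). With upper-quartile factors it also went from 44.9% to 57.6% for Atf4 knockout against Rosa26 untreated and from 41.9% to 52.2% for the same with the drug. Between the knockouts the difference in response, with few calls, went from 50% to 81.8%. Depth limits Egr2 most, at 3 to 36 counts a library.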
